A study of Mus musculus with 39 samples.

Results

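Glucose transporters and the insulin signal were followed through 10 genes in the subcutaneous fat of C57BL/6J mice: the sugar transporters Slc2a1, Slc2a3, Slc2a4 and Slc2a5, the insulin receptor Insr, and the signalling genes Irs1, Irs2, Akt2, Pik3r1 and Pde3b. They were taken by gene name from the 29411 gene names of a 1-colour Agilent array, on which 16 probes at 17 spots carry them. Each of the 10 was well above background on enough arrays to enter every fit. The genes were named by function, but with earlier results of these arrays known, and Slc2a5 was chosen on its measured difference between the HF5 and LFC arrays. Its levels between diets are therefore a description, without a test.

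Weaned mice of 3 to 4 weeks were split into 5 groups of 30. The LFC group ate a normal diet with 10% of calories from fat. The HFC group ate a high fat diet with 60% of calories from fat and added sucrose, and the HF5, HF20 and HF75 groups ate that diet with 5, 20 or 75 µg of KAL-1, an aqueous ethnobotanical formulation. The 5 diets gave 39 arrays, 1 per diet and time point: 10 of LFC, 11 of HFC and 6 of each KAL-1 dose. Per the labels 5 animals of a group were killed every 3 weeks, and whether an array holds 1 animal or a pool is not given in the sources used here. Replication therefore comes from time points. The fits of diets take out the level of each time point, so their p-values rest on how the difference between single arrays varies from time point to time point. In the methods of the study weeks were counted from Day 14, which would make Day 14 and Week 0 the same time. The labels give them as 2 time points and they are kept so here. Averaged as 1 time point they turned the sign of no member's difference between HFC and LFC, and moved by over 1.5 times only the values of Irs2 and Slc2a3, which lie near 0.

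Insulin binds Insr, which phosphorylates docking proteins such as Irs1 and Irs2. These recruit phosphoinositide 3-kinase, whose regulatory subunit p85α is made by Pik3r1, and the lipid it forms activates Akt2, the main Akt isoform of the insulin response in fat cells. Akt2 then drives vesicles carrying the insulin-responsive glucose transporter GLUT4, the product of Slc2a4, to the cell surface, and Pde3b, a cyclic nucleotide phosphodiesterase, carries the part of the signal that restrains lipolysis. Slc2a1 and Slc2a3 make the basal glucose transporters GLUT1 and GLUT3, and Slc2a5 makes GLUT5, which carries fructose and hardly any glucose. Receptor numbers, phosphorylation and movement of GLUT4 are not seen by an RNA array.

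RefSeq promoter windows (GRCm38.p6) were at hand for 6 of the 10 genes, in 10 windows. Shown here are the 250 bases before the start of the fructose transporter gene and of 2 genes, Slc2a1 and Irs2, that were low together on 6 arrays described below, as the sequence context of the genes on which the results turn. Capitals mark the GC box, GGGCGG on either strand, and the E box, CACGTG.
Slc2a5, chr4:150119094-150119343, plus strand: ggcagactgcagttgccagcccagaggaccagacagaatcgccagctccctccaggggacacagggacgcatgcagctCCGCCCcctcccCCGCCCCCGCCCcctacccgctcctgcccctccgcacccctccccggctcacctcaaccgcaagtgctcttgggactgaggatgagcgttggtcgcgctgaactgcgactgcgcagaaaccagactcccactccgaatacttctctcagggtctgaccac
Slc2a1, chr4:119108495-119108744, plus strand: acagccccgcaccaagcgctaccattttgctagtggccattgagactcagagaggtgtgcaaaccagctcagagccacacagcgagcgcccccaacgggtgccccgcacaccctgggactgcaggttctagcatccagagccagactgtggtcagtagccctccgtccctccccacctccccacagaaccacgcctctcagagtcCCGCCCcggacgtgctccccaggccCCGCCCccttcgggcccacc
Irs2, chr8:11008930-11009179, minus strand: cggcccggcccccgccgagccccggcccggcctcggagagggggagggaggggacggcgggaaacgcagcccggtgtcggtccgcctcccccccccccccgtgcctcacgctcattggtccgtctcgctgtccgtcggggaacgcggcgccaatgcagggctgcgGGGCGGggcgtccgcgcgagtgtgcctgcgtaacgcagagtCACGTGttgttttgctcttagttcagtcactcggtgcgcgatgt
The Slc2a5 window holds 3 GC boxes and no E box, the Slc2a1 window 2 GC boxes and no E box, and the Irs2 window 1 of each. Of all 32851 mouse windows of this length, 32.7% hold a GC box and 6.02% an E box. A match is a description of the letters only.

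A level below is the log2 signal of a probe minus the log2 75th percentile of its array, so 0 is the brightness of the 75th percentile. Levels of different genes come from different probes and were not set against each other. In scanner units the 75th percentile lay between 108 (LFC, Week 18) and 1285 (HF75, Week 12), and 49.3 to 87.8% of spots were well above background. All 10 adipocyte markers, such as Adipoq and Plin1, were well above background on all 39 arrays, with a mean level between 2.22 and 5.87. In the authors' table of log2 ratios the Week 12 columns of HF5 and HF20 matched the other's array, with r = 0.999 against 0.664 and 0.665 for the array of their own label. Members' differences of HF5 or HF20 from HFC that exchanging the arrays turned in sign or moved by over 1.5 times are therefore given both ways. No member passed the test in these 2 comparisons after the exchange either. The marker and pathway lists are given with the arrays as labelled only. The differences between diets depended on single time points: with each left out in turn, 33 of the 36 differences of the 9 tested members, HFC from LFC and the 3 doses from HFC, moved by over 1.5 times and 17 of them turned sign, so their lowest and highest values are given beside them. Further, 6 arrays had a mean of 15 immediate-early genes below 0, between -1.32 and -0.65, where the other 33 lay between 2.5 and 4.26. They were HFC at Day 1, LFC and HFC at Day 6, HFC at Day 10, HF75 at Week 3 and LFC at Week 12. Immediate-early genes, such as Fos and Egr1, are transcribed within minutes of a stimulus to the tissue. A mean of 12 skeletal muscle markers above 4 was seen on 5 arrays, HFC at Day 1 (5.99), LFC at Day 6 (4.11), HFC at Day 6 (4.93), HF75 at Week 3 (7.31) and HF5 at Week 12 (5.59). The other 34 arrays lay between -3.73 and 2.79. These 2 sets of arrays were found in the data, by the marker means, and no test compares them.

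**Figure D1:**
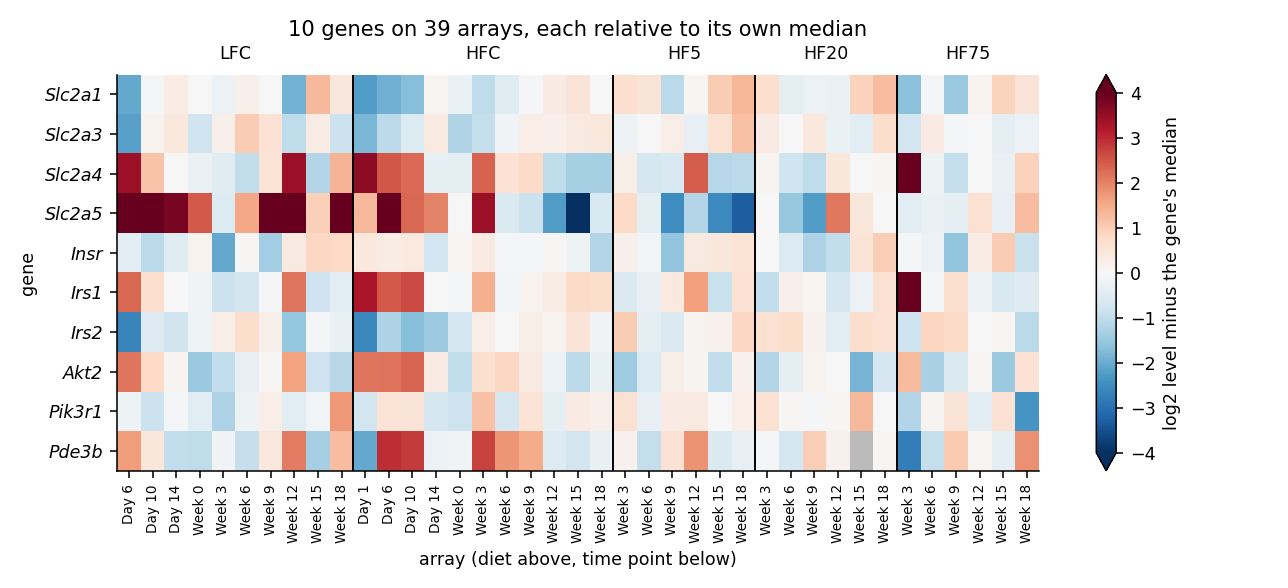
Heat map of the 10 genes (rows) on the 39 arrays (columns, by diet and time point), as the log2 level minus the gene's own median, with the 1 dropped Pde3b spot in grey and the colour scale ending at 4 in each direction. Slc2a5 is red on most LFC arrays, and on the arrays HFC Day 1, LFC Day 6, HFC Day 6, HFC Day 10, HF75 Week 3 and LFC Week 12 Slc2a4, Irs1 and Akt2 are red where Slc2a1, Slc2a3 and Irs2 are blue.

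Slc2a5, the fructose transporter, was chosen for its difference between HF5 and LFC, so its levels are described without a test. On the 10 LFC arrays its lowest level was -4.69 at Week 3, its median -0.02 and its highest 4.59 at Week 12. On the 11 HFC arrays the lowest was -8.12 at Week 15, the median -4.16 and the highest -0.01 at Day 6. The ranges overlapped through the LFC arrays of Week 3, Week 15, Week 6, Week 0 and Day 14, which lay between -4.69 and -0.36. The HF5 arrays ran from -7.45 over a median of -5.97 to -3.38, the HF20 arrays from -6.39 over -4.16 to -2.04, and the HF75 arrays from -4.57 over -4.46 to -2.93. At 5 of the 6 time points from Week 3 to Week 18 the LFC array was above each of the other 4. At Week 3 it was below them all.

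The probe was well above background on all 10 LFC arrays, on 8 of 11 HFC arrays, and on 2, 5 and 4 of the 6 arrays of HF5, HF20 and HF75. Of the 29 arrays of the 4 high fat diets, 10 were thus not well above background, and their levels lie close to what the array can measure, where the scanner software replaces the lowest signals by substitutes. In the fit over 10 time points, in which the time point is a block, Slc2a5 was 3.65 lower in HFC than in LFC (SE 1.05), with the HFC array lower at 9 time points. From Week 3 to Week 18 it was 4.25 lower in HFC, 4.96 lower in HF5, 3.65 lower in HF20 and 3.38 lower in HF75 than in LFC (SE 1.17 each). Against HFC the 3 doses differed by -0.71, 0.60 and 0.87 (SE 1.17 each). The spot was not well above background on 3 of the 6 HFC arrays and 4 of the 6 HF5 arrays of these weeks, so their difference is of dim spots. Leaving out 1 time point made the 3 run from -1.13 (without Week 15) to -0.32 (Week 18), from -0.16 (Week 15) to 1.41 (Week 3), and from 0.32 (Week 15) to 1.82 (Week 3). With the 2 Week 12 arrays exchanged the first 2 were -0.17 and 0.06, and the differences of HF5 and HF20 from LFC were -4.42 and -4.20.

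The single time points show how uneven the Slc2a5 difference was. HFC minus LFC was -3.77 at Day 6, -2.91 at Day 10, -1.81 at Day 14 and -2.46 at Week 0. It was then 3.96 at Week 3, -2.14 at Week 6, -5.32 at Week 9, -10.97 at Week 12, -4.92 at Week 15 and -6.13 at Week 18. On the HFC arrays of Week 12, Week 15 and Week 18 the spot was not well above background, so the last 3 differences rest on dim spots and their order is not read. Week 3 was the only point in the other direction, and its LFC array had the highest lymphocyte marker mean of the 39, 2.05, where the HFC array had -4.54. The part of this in the Slc2a5 value was not tested. Without Week 12 the difference over the remaining time points was -2.83, and without Week 3 it was -4.49. Without the 6 arrays with low immediate-early genes it was -2.69, and without the 5 arrays with high muscle markers -3.63. After normexp background correction, which lifts dim spots, it was -2.47, and from Week 3 to Week 18 the differences from LFC were -2.55 for HFC, -2.82 for HF5, -1.30 for HF20 and -1.98 for HF75. The change per week from Week 3 to Week 18 was -0.010 (SE 0.074).

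Lists of markers of other cells are set beside the Slc2a5 difference by the sign of their genes' differences. In HFC against LFC over 10 time points none of 7 brown fat markers had a positive difference (median -0.74), nor any of 8 lymphocyte markers (-0.82), and 1 of 12 muscle markers did (-0.68), and neither did any of 4 red blood cell markers (-0.57) nor 6 of 7 endothelial ones (-0.28). All 8 macrophage markers (0.65) and 7 of 10 adipocyte markers (0.41) had a positive difference, beside a median of -0.04 over all genes. The mean brown fat level ran from -3.3 to 2.83 on LFC and from -3.0 to 3.05 on HFC, the macrophage mean from -0.55 to 0.9 and from -2.07 to 1.78, and the lymphocyte mean from -3.81 to 2.05 and from -5.22 to -1.4. At an unadjusted p under 0.05, 4 macrophage markers and 1 skin marker were higher and 2 red blood cell markers lower. Of the adipocyte markers 1 was higher and 1 lower, and none of brown fat, lymphocytes, muscle or endothelium was past it. Over all 19871 genes tested the share was 5.86%. From Week 3 to Week 18, HFC against LFC, none of 8 brown fat (median -1.06), 9 lymphocyte (-1.63), 12 muscle (-1.69) or 4 red blood cell markers (-0.88) had a positive difference, while all 8 macrophage markers (0.35) and all 14 immediate-early genes (1.19) did. The lymphocyte difference was uneven: the LFC mean was highest at Week 3 (2.05) and lowest at Week 18 (-3.81), where HFC had its highest (-1.4). The brown fat markers Elovl3, a fatty acid elongase, and Cidea, a lipid droplet protein, differed from Week 3 to Week 18 by -3.58 (SE 0.82, unadjusted limma p = 0.000216) and -2.22 (SE 0.97, p = 0.032), the B cell marker Cd79b by -1.96 (SE 0.92, p = 0.0449), and 4 immediate-early genes were higher at an unadjusted p under 0.05, each with an adjusted p of 0.85. Of the adipocyte markers 8 of 10 were positive, with Lpl 0.93 higher (SE 0.34, unadjusted limma p = 0.012, adjusted p = 0.85). Over all genes 5.05% had an unadjusted p under 0.05. The counts of the 3 doses lay close for muscle markers and further apart for other lists, and no test compared the doses. Against LFC, brown fat markers were positive for 1, 2 and 4 of 8 in HF5, HF20 and HF75 (medians -0.77, -0.18 and -0.02), lymphocyte markers for 0, 3 and 0 of 9 (-0.86, -0.47 and -1.93), muscle markers for 11, 10 and 12 of 12 (0.82, 0.51 and 1.39), macrophage markers for 6, 3 and 1 of 8 (0.27, -0.19 and -0.39), and immediate-early genes for 14, 14 and 9 of 14 (1.20, 1.21 and 0.23). Elovl3 was at -3.28 in HF5 (SE 0.82, unadjusted limma p = 0.000547, adjusted p = 1), where 2.44% of all genes had an unadjusted p under 0.05. No gene of these lists passed the adjusted test in any of these comparisons, and their part in the Slc2a5 differences was not tested.

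**Figure D2:**
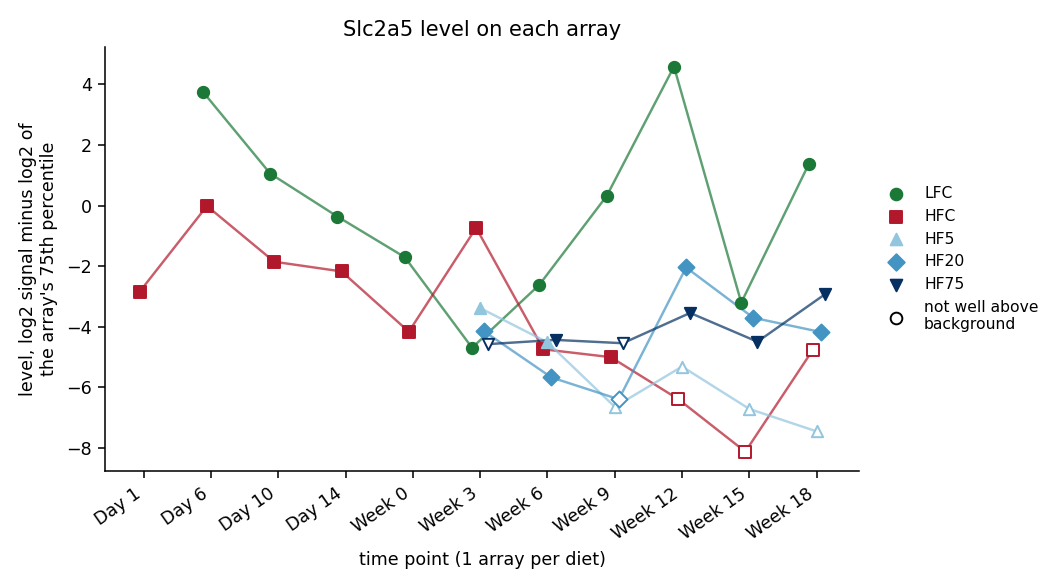
Level of Slc2a5 (log2 signal minus the log2 75th percentile of the array) at each time point for the 5 diets, 1 point per array, with open symbols where the spot was not well above background. LFC (green) reaches 4.59 at Week 12 and lies at -4.69 at Week 3, while all HFC and KAL-1 arrays stay at or below -0.01.

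By level over all 39 arrays, the 5 genes most like Slc2a5 among 17509 genes well above background on at least 20 arrays were Acly (Pearson r = 0.881), Gm11295 (0.876), Acaca (0.864), Cyb5b (0.855) and Acss2 (0.854). Acly, ATP citrate lyase, and Acss2, an acetyl-CoA synthetase, make cytosolic acetyl-CoA, and Acaca, acetyl-CoA carboxylase, commits it to fatty acid synthesis. After each time point's mean was subtracted, r was 0.912 for Acly, 0.84 for Acaca and 0.809 for Acss2. These are descriptions over arrays that share diet, time point and tissue make-up, and carry no p.

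Slc2a4, the gene of GLUT4, did not pass the test between any diets. Its level ran from 1.42 to 6.03 on the LFC arrays (median 2.89) and from 1.26 to 6.19 on the HFC arrays (median 3.18). It ran from 1.46 to 5.02 on HF5 (median 1.96), from 1.59 to 3.05 on HF20 (median 2.63) and from 1.65 to 7.34 on HF75 (median 2.49). All 5 ranges overlapped. In the fit over 10 time points Slc2a4 was 0.31 lower in HFC than in LFC (SE 0.59, 95% interval -1.59 to 0.97, limma adjusted p = 0.928), with the HFC array higher at 4 of 10 time points. The saturated LFC spot of Week 12 enters this value, through a difference of -4.46 that is the largest of the 10 and a bound only, so the fitted value and its interval are not exact. Among the 9 members tested no gene had an unadjusted p under 0.05 in this comparison, beside 5.86% of 19871 genes tested, and no gene of all those tested had an adjusted p under 0.05 (0%).

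Slc2a4 read above 5 on 6 arrays. It read 7.34 on HF75 at Week 3, 6.19 on HFC at Day 1, 6.03 on LFC at Week 12, 6.02 on LFC at Day 6, 5.08 on HFC at Day 6 and 5.02 on HF5 at Week 12. The spot was saturated on HFC at Day 1 and LFC at Week 12, so these 2 values are lower bounds and the order of the 6 is not read. Of these 6, 5 are the arrays with a muscle marker mean above 4, and skeletal muscle is a main site of GLUT4. All 12 muscle markers were well above background on those 5 arrays, and at least 8 of 12 on the others, so muscle RNA was measurable throughout. The LFC array of Week 12 is the exception, with a muscle mean of 0.81 and an adipocyte mean of 5.63. Likewise the HFC array of Week 3 read 4.95, with a muscle mean of -3.14. The LFC array of Week 12 is also one of the 6 arrays with low immediate-early genes. On those 6 arrays Slc2a4 read between 4.88 and 7.34, and on the other 33 between 1.26 and 5.02. The mean of 8 brown fat markers, a tissue that also uses GLUT4, ran from -3.81 on HF5 at Week 6 to 3.05 on HFC at Day 6. The part of muscle, of brown fat or of what sets the arrays with low immediate-early genes apart in the Slc2a4 differences was not tested. In tissue RNA, fewer cells of a type and less RNA per cell cannot be told apart.

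Against HFC, Slc2a4 differed by -0.14 in HF5, -0.20 in HF20 and 0.71 in HF75 (SE 0.77 each, limma adjusted p = 1, 0.997 and 0.893). Without the arrays with high muscle markers these were -0.52, -0.20 and 0.02, and with the Week 12 arrays exchanged those of HF5 and HF20 were -0.47 and 0.13. Leaving out 1 time point made the 3 run from -0.86 (without Week 12) to 0.26 (Week 3), from -0.53 (Week 12) to 0.21 (Week 3), and from 0.37 (Week 3) to 1.19 (Week 9).

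Marker lists are given here for the same 3 fits, and their part in the dose differences of Slc2a4 and the other members was not tested. All 12 muscle markers had a positive difference in each of HF5, HF20 and HF75 (medians 2.14, 1.53 and 2.98), with 4, 3 and 6 of them at an unadjusted p under 0.05. Of all genes 1.36%, 4.3% and 5.02% had one. The HF75 arrays include that of Week 3, with a muscle mean of 7.31, and the HF5 arrays that of Week 12, at 5.59. Brown fat markers were positive for 7, 8 and 8 of 8 (0.20, 0.86 and 1.23), macrophage markers for 1 of 8 in each dose (-0.35, -0.69 and -0.78), lymphocyte markers for 9, 9 and 5 of 9 (0.61, 1.06 and 0.06), adipocyte markers for 3, 2 and 4 of 10 (-0.31, -0.53 and -0.19), and immediate-early genes for 7, 8 and 1 of 14 (-0.01, 0.12 and -0.87). Lpl (adipocyte) was lower in HF5 and HF20 and Elovl3 (brown fat) higher in HF20 and HF75 at an unadjusted p under 0.05. Also at such a p were Cd79a (lymphocyte), higher in HF20, and Itgax, Cd68 and Cd14 (macrophage) and Fosl1 (immediate-early), lower in HF75. The medians over all genes were 0.00, 0.05 and 0.00, and no gene of these lists passed the adjusted test. The lists were read only with the Week 12 arrays as labelled, where the brown fat mean was 0.53 on HF5 and 2.88 on HF20.

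Leaving out Week 12, where LFC stood at 6.03, turned the Slc2a4 difference of HFC from LFC over the other time points to 0.15 (SE 0.47), while without Week 3 it was -0.66, and the sign was also positive in 3 other settings, among them 0.29 with scan day as the block. That block also leaves out the Week 12 pair, whose arrays were scanned on different days.

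**Figure D3:**
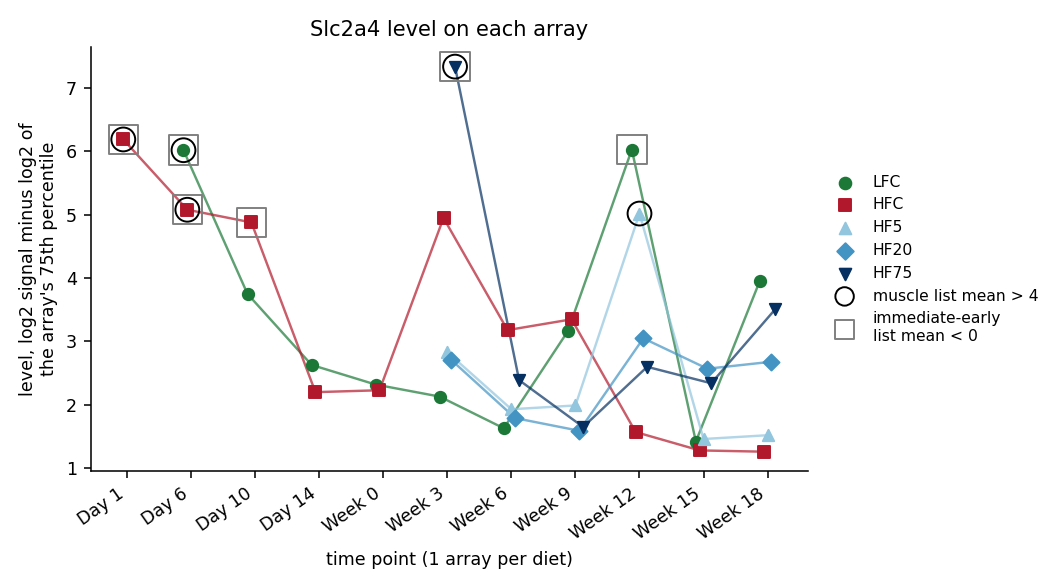
Level of Slc2a4 (log2 signal minus the log2 75th percentile of the array) at each time point for the 5 diets, with a black circle round arrays whose muscle marker mean was above 4 and a grey square round arrays whose immediate-early mean was below 0. The points at 7.34, 6.19 and 6.03 all carry a mark, and the last 2 are of saturated spots.

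The 5 genes most like Slc2a4 over 39 arrays were Cisd1 (r = 0.954), LOC629862 (0.951), Ddo (0.948), Mlycd (0.943) and Esrra (0.938). Cisd1 makes an iron-sulphur protein of the outer mitochondrial membrane, Mlycd malonyl-CoA decarboxylase, Ddo D-aspartate oxidase, and Esrra the oestrogen-related receptor α. With the time points' means subtracted these r were 0.926, 0.932, 0.928, 0.899 and 0.895. Slc2a4 and Slc2a5 themselves had r = 0.584 over the 39 arrays.

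The basal transporters Slc2a1 and Slc2a3 did not pass the test between diets either. Slc2a1 ran from 0.37 to 3.72 on the LFC arrays (median 2.43), from 0.20 to 2.93 on HFC (2.15), from 1.36 to 3.76 on HF5 (3.03), from 2.05 to 3.66 on HF20 (2.63) and from 0.78 to 3.33 on HF75 (2.48). It was 0.25 lower in HFC than in LFC (SE 0.30, limma adjusted p = 0.882), with the HFC array lower at 8 of 10 time points. Of the other 2 points, Week 12 stood out at 2.22, where the LFC array was one of the 6 with low immediate-early genes. At Day 10, the lowest difference at -1.60, the HFC array was one of them. Slc2a1 lay between 0.20 and 0.78 on the 6, below all 33 others, at 0.96 to 3.76. Without Week 12 the difference was -0.52 (SE 0.19, unadjusted limma p = 0.0206, adjusted 0.349), without Day 10 it was -0.096 (SE 0.298), and after normexp correction -0.12 (SE 0.29). With scan day as the block it was -0.60 (SE 0.20, unadjusted limma p = 0.0129, adjusted p = 0.252), and without the arrays with low immediate-early genes -0.46 (SE 0.18, unadjusted p = 0.0304, adjusted p = 0.502). Pairs scanned on different days, among them Week 12, drop out of the former, and the LFC array of Week 12 out of the latter. These fits thus share the omission of Week 12 and are not separate. Against HFC, Slc2a1 differed by 0.54 in HF5, 0.43 in HF20 and -0.15 in HF75 (SE 0.39 each, limma adjusted p = 1, 0.997 and 0.955). Across fits lacking 1 time point these ran from 0.31 (without Week 3) to 0.86 (Week 9), from 0.19 (Week 3) to 0.64 (Week 12), and from -0.28 (Week 18) to 0.11 (Week 9).

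Slc2a1 was the only member with an unadjusted p under 0.05 on the 1 probe kept per gene, for its change over weeks. Its fitted slope was 0.078 per week from Week 3 to Week 18 over the 30 arrays of 5 diets (SE 0.027, unadjusted limma p = 0.00694, adjusted p = 0.194). In that fit 15.5% of 21085 genes had an unadjusted p under 0.05 and 0.0949% an adjusted one, so 1 of 9 members tested is near the background. The 5 arrays of a week are not independent for a slope over weeks: with time point as a random block the unadjusted limma p was 0.0329 (adjusted p = 0.807), and with scan day 0.0436 (adjusted p = 0.827). Without Week 15 or Week 18 it was 0.0647 or 0.0715 in the fit without a block.

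Slc2a3, the high-affinity neuronal and blood cell glucose transporter, had the smallest difference between HFC and LFC. Its LFC arrays ran from -2.69 to 0.51 (median -0.35) and its HFC arrays from -2.33 to -0.08 (-0.65). The HFC difference from LFC was 0.00 (SE 0.28, 95% interval -0.62 to 0.62), and its sign changed in 11 of 25 settings, from -0.14 (without Week 18) to 0.13 (Week 6) with 1 time point left out. The 3 doses lay 0.21, 0.09 and -0.20 from HFC (SE 0.32 each, limma adjusted p = 1, 0.997 and 0.927). Their ranges with 1 time point left out were 0.11 (without Week 3) to 0.36 (Week 12), -0.15 (Week 3) to 0.27 (Week 15), and -0.34 (Week 6) to -0.10 (Week 15).

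Insr, the receptor, did not pass the test between diets on either probe. On the probe used it ran from -2.61 to 0.26 on LFC (median -0.74), from -1.72 to -0.14 on HFC (-0.51), from -2.13 to -0.01 on HF5 (-0.27), from -1.81 to 0.43 on HF20 (-0.83) and from -2.14 to 0.46 on HF75 (-0.72). HFC minus LFC was 0.22 (SE 0.38, limma adjusted p = 0.919), with 4 of 10 time points higher in HFC. It was -0.03 without Week 3 and 0.46 without Week 18. Against HFC it differed by 0.15 in HF5, -0.03 in HF20 and -0.08 in HF75 (SE 0.43 each, limma adjusted p = 1, 0.998 and 0.977), and with the Week 12 arrays exchanged the first 2 were -0.07 and 0.19. Leaving out 1 time point made the 3 run from -0.16 (without Week 18) to 0.49 (Week 9), from -0.47 (Week 18) to 0.20 (Week 9), and from -0.34 (Week 15) to 0.21 (Week 9). A second Insr probe was well above background on only 26 of 39 arrays and followed the first with r = 0.258. On that probe Insr was 0.97 lower in HF75 than in HFC (SE 0.38, unadjusted limma p = 0.0181, adjusted p = 0.881 in the fit of all probes). Its sequence is shown with 3 others for which probes of 1 gene could be compared.
Insr, second probe: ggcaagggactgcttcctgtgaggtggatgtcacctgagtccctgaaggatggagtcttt
Akt2, second probe: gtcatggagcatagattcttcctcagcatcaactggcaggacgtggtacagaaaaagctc
Pik3r1, probe used: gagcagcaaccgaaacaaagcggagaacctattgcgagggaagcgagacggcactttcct
Pik3r1, dimmer probe in the other direction: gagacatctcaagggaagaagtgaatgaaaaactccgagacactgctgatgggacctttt

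The levels of the docking proteins Irs1 and Irs2 were opposed over the arrays. Irs1 ran from -0.15 to 3.02 on LFC (median 0.60), from 0.60 to 3.98 on HFC (1.41), from -0.18 to 2.36 on HF5 (0.75), from -0.26 to 1.32 on HF20 (0.62) and from 0.11 to 4.68 on HF75 (0.59). Irs2 ran from 1.41 to 4.73 on LFC (3.79), from 1.46 to 4.54 on HFC (3.89), from 3.46 to 5.05 on HF5 (4.18), from 3.58 to 4.75 on HF20 (4.65) and from 2.95 to 4.89 on HF75 (4.07). Over 39 arrays the r of the pair was -0.589, and -0.310 after the time points' means were subtracted. On the 6 arrays with low immediate-early genes Irs1 lay between 2.85 and 4.68, above all 33 others, which reached 2.36. Irs2 on the 6 lay between 1.41 and 3.22 and on the others between 2.58 and 5.05.

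Irs1 was 0.62 higher in HFC than in LFC over 10 time points (SE 0.35, 95% interval -0.15 to 1.39, unadjusted limma p = 0.103, adjusted p = 0.802). The HFC array was the higher at 8 of 10 points, the exceptions being Day 14 at -0.01 and Week 12 at -1.83. Without Week 12 the difference was 0.89 (SE 0.28, unadjusted limma p = 0.00888, adjusted 0.33), and without Week 3 it was 0.44 (SE 0.34). Scan day as the block leaves out the pairs scanned on different days, among them Week 12, and gave 0.99 (SE 0.30, limma adjusted p = 0.237). The second Irs1 probe, which followed the first with r = 0.546, gave 0.67 (SE 0.25, unadjusted limma p = 0.0181, adjusted p = 0.846), and from Week 3 to Week 18 0.89 (SE 0.40, unadjusted p = 0.038, adjusted p = 0.882). Against HFC, Irs1 differed by -0.40 in HF5, -0.71 in HF20 and 0.00 in HF75 (SE 0.62 each, limma adjusted p = 1, 0.997 and 0.999). With the Week 12 arrays exchanged the first 2 were -0.79 and -0.32. Over the fits without 1 time point they ran from -0.75 (without Week 12) to -0.08 (Week 3) and from -0.91 (Week 6) to -0.38 (Week 3), and the third from -0.51 (Week 3) to 0.28 (Week 15). The HF75 value depends on Week 3, where its array read 4.68 and the next highest of that diet 1.35: without the arrays with high muscle markers, of which it is one, it was -0.74 (SE 0.45).

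Irs2 was 0.08 higher in HFC than in LFC (SE 0.28, limma adjusted p = 0.962), from -0.10 (without Week 12) to 0.22 (Day 10) with 1 time point left out, and 0.16 with Day 14 and Week 0 averaged. Its HFC arrays from Week 3 to Week 18 lay between 3.89 and 4.54 (4.21 ± 0.22, SD, n = 6), where LFC held 3.91 ± 0.78 (SD, n = 6). The doses differed from HFC by 0.03, 0.22 and -0.20 (SE 0.36 each, limma adjusted p = 1, 0.997 and 0.935), and the exchange made the first -0.06. Over the fits without 1 time point they ran from -0.16 (without Week 18) to 0.20 (Week 9), from 0.12 (Week 18) to 0.39 (Week 12), and from -0.41 (Week 6) to -0.02 (Week 3).

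**Figure D4:**
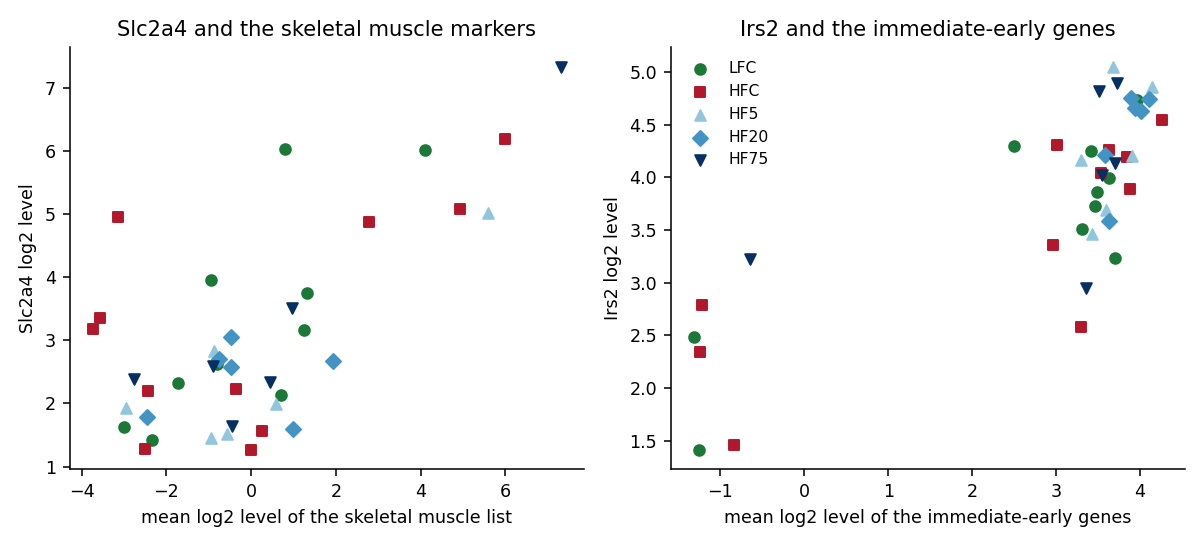
Left, Slc2a4 level against the mean level of 12 skeletal muscle markers; right, Irs2 level against the mean level of 15 immediate-early genes, both in log2, 1 point per array, coloured by diet. The array at a muscle mean of 7.31 has a Slc2a4 level of 7.34, the points at 6.19 and 6.03 are of saturated spots, and the 6 arrays with an immediate-early mean below 0 have Irs2 levels of 3.22 or less.

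Akt2 levels ran with those of Irs1 and against those of Irs2. Akt2 ran from -0.16 to 3.49 on LFC (median 1.20), from 0.30 to 3.68 on HFC (1.70), from -0.07 to 1.58 on HF5 (1.12), from -0.52 to 1.47 on HF20 (0.82) and from -0.15 to 2.61 on HF75 (1.07). Its r over the arrays was 0.772 with Irs1 and -0.756 with Irs2, and its 6 highest levels, 2.61 to 3.68, were those of the 6 arrays with low immediate-early genes. The second probe followed the first with r = 0.928. Akt2 was 0.42 higher in HFC than in LFC (SE 0.30, limma adjusted p = 0.823), and higher at 8 of 10 time points. Without Week 12 this was 0.67 (SE 0.23, unadjusted limma p = 0.0133, adjusted 0.339), and without Week 3 it was 0.28 (SE 0.31).

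Against HFC, Akt2 differed by -0.45 in HF5, -0.70 in HF20 and -0.29 in HF75 (SE 0.43 each, limma adjusted p = 1, 0.997 and 0.92). Across fits lacking 1 time point these ran from -0.64 (without Week 18) to -0.13 (Week 3), from -0.88 (Week 12) to -0.48 (Week 3), and from -0.53 (Week 18) to 0.08 (Week 6). The HF20 array was the lower at 5 of 6 time points. Without the arrays with low immediate-early genes the HF20 difference was -0.70 (SE 0.33, unadjusted limma p = 0.0479, adjusted p = 0.742). After normexp correction the HF20 difference was -1.02 (adjusted p = 0.0477), but that setting also put the median of all genes at 0.36, from 0.05, and called 8121 of them. With array weights it was -0.40. In the fit without the arrays with low immediate-early genes HFC minus LFC was 0.85 for Irs1 and 0.64 for Akt2 (unadjusted limma p = 0.024 and 0.0317, adjusted 0.497 and 0.503). That fit also lacks the LFC array of Week 12.

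Pik3r1, the p85α gene, has 4 probes, which disagreed. The one used, the brightest, ran from -0.45 to 2.49 on LFC (median 0.57), from -0.05 to 1.93 on HFC (0.96), from 0.43 to 1.39 on HF5 (1.06), from 0.71 to 2.06 on HF20 (0.83) and from -1.60 to 1.35 on HF75 (0.61). The 3 others followed it with r of 0.187, 0.472 and 0.508. On the probe used, Pik3r1 was 0.23 higher in HFC than in LFC (SE 0.33, limma adjusted p = 0.899) and 0.66 lower in HF75 than in HFC (SE 0.46, adjusted p = 0.866). With 1 time point left out the first ran from -0.01 (without Week 3) to 0.43 (Week 18) and the second from -0.95 (Week 6) to -0.28 (Week 18). Another probe gave 0.42 for the first (SE 0.18, unadjusted limma p = 0.0348, adjusted p = 0.846) and -0.59 for the second (SE 0.26, unadjusted p = 0.0308, adjusted p = 0.881). On that probe Pik3r1 was further 0.74 higher in HF5, 0.70 higher in HFC and 0.65 higher in HF20 than in LFC from Week 3 to Week 18 (SE 0.26 each, unadjusted limma p = 0.00836, 0.0122 and 0.0188, adjusted p = 1, 0.882 and 1), 3 comparisons that share the LFC arrays. A further probe gave 0.092 (SE 0.275) and -0.286 (SE 0.285), and the dimmer probe whose sequence is shown gave -0.32 (SE 0.27) and 0.16 (SE 0.31), so the 4 probes differ in sign. HF5 and HF20 differed from HFC by 0.00 and 0.13 on the probe used (SE 0.46 each, limma adjusted p = 1 and 0.997), and the exchange made the first -0.04. Over the fits without 1 time point they ran from -0.14 (without Week 12) to 0.11 (Week 3) and from -0.04 (Week 15) to 0.27 (Week 9).

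Pde3b, the phosphodiesterase of the antilipolytic arm, ran from -3.4 to -0.02 on LFC (median -1.93), from -4.12 to 0.89 on HFC (-2.22), from -3.02 to -0.26 on HF5 (-2.15), from -2.78 to -1.08 on the 5 HF20 arrays left after 1 outlier spot was dropped (-1.98), and from -4.85 to -0.25 on HF75 (-2.21). HFC minus LFC was 0.83 (SE 0.50, 95% interval -0.25 to 1.91, limma adjusted p = 0.802), with HFC higher at 8 of 10 time points. Without Week 12 it was 1.203 (SE 0.403, unadjusted p = 0.0126, adjusted 0.339), and after normexp correction 0.37 (SE 0.38). The doses differed from HFC by -0.61, -0.83 and -0.92 (SE 0.67, 0.68 and 0.67, limma adjusted p = 1, 0.997 and 0.866). The HF75 value depends on Week 3, at -5.49, where the HF75 spot was not well above background, and without that week it was -0.001 (SE 0.606). Without Week 18 it was -1.52 (SE 0.71, unadjusted limma p = 0.0454, adjusted p = 0.874). With 1 time point left out the HF5 value ran from -1.20 (without Week 12) to -0.185 (Week 6) and the HF20 value from -1.12 (Week 12) to -0.45 (Week 3). After normexp correction the HF20 value was 0.05 (SE 0.49), and with the Week 12 arrays exchanged it was -0.49.

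**Figure D5:**
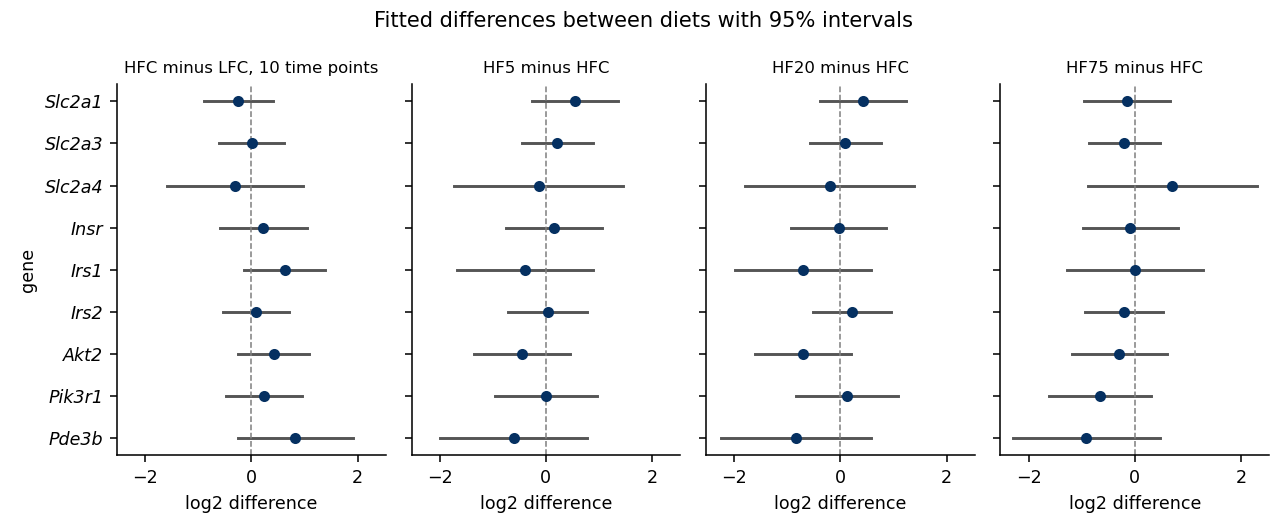
Fitted log2 difference (dot) with its 95% interval (line) for the 9 members tested, in HFC minus LFC over 10 time points and in each KAL-1 dose minus HFC from Week 3 to Week 18. All 36 intervals cross 0, and the largest difference among them, the -0.92 of Pde3b in HF75, is -0.001 without Week 3.

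On the 1 probe kept per gene none of the 9 tested members had an adjusted p under 0.05, and between diets none had an unadjusted p under 0.05. Second probes of Insr, Irs1 and Pik3r1 did, as given above, and none of these passed after adjustment. The background for the latter was 5.05% of 21085 genes for HFC against LFC from Week 3 on, 1.36% for HF5, 4.3% for HF20, 5.02% for HF75 and 4.51% for the 3 doses together against HFC, and 2.44%, 2.85% and 3.63% for the same doses against LFC. The smallest p between diets was that of Irs1 for HFC against LFC. In the mean levels of Week 3 to Week 18 the 5 diets of each of the 9 spanned no more than the SD within a diet. That SD was taken as the root mean square of the 5 SDs, and the values ran from 0.23 against 0.89 for Insr to 0.78 against 0.78 for Pik3r1. It is the SD of single arrays, not of means, and holds the variation between weeks that the fits take out. It is therefore no test of the order of the diets, and that order is not read. For Slc2a5 no order of the high fat diets is read, as 1 to 4 of the 6 arrays of each were not well above background. The difference of HFC from LFC did not pass the test as being larger or smaller late than early for any of them, with Irs2 at the smallest p (0.53, SE 0.58, limma adjusted p = 1, background 1.89%). The median member difference of HFC from LFC was 0.22, where that of all genes was -0.04.

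Of the other genes of the pathway, lists were drawn up for the sugar transporters, the receptor and docking proteins, the PI3K and Akt steps, GLUT4 vesicle traffic and sugar handling in the cell. In HFC against LFC over 10 time points 6 of 7 further transporters had a positive difference (median 0.34), as had 15 of 21 PI3K and Akt genes (0.12), 12 of 19 of vesicle traffic (0.05), 8 of 16 receptor and docking genes (0.05) and 8 of 18 of sugar handling (-0.03), beside a median of -0.04 over all genes. In these lists only Lrp1, a cargo receptor of GLUT4 vesicles, and Hk2, the hexokinase of muscle and fat, had an unadjusted p under 0.05, at 0.86 (SE 0.36) and 1.02 (SE 0.45), with a limma adjusted p of 0.802 for both. These are 2 of 81 list genes, 2.47%, beside 5.86% of all genes. From Week 3 to Week 18 the difference was 0.65 (SE 0.24) for Gab1, a docking protein, 1.38 (SE 0.63) for Hk2 and -0.47 (SE 0.22) for Grb2, an adaptor, each with a limma adjusted p of 0.85. These are 3 of 82 list genes, 3.66%, beside 5.05% of all genes. In that fit 18 of 21 PI3K and Akt genes had a positive difference, with a median of 0.23 beside -0.06 over all genes, and 7 of 18 sugar handling genes, with a median of -0.21. Gab1 differed from LFC by 0.75 in both HF5 and HF20 (SE 0.24, limma adjusted p = 1). Grb10, an inhibitory adaptor of the receptor, differed from LFC by 0.69, 0.77 and 0.56 in HF5, HF20 and HF75 (SE 0.26 each, adjusted p = 1, 1 and 0.982). These 3 comparisons share the LFC arrays, and in them 2.44%, 2.44% and 1.22% of list genes had an unadjusted p under 0.05, beside 2.44%, 2.85% and 3.63% of all genes. In the comparison of HF75 with HFC, Slc2a13, a myo-inositol transporter, was 1.24 lower (SE 0.48) and Shc1, an adaptor, 0.55 lower (SE 0.24), with a limma adjusted p of 0.866 for both, which are 2.44% of list genes beside 5.02% of all genes. Over the weeks, Tbc1d4, the Akt substrate that holds GLUT4 vesicles back, had a slope of -0.093 per week (SE 0.028) and Vamp2, a vesicle fusion protein, of 0.101 (SE 0.036), with a limma adjusted p of 0.153 and 0.206. The slopes of Gsk3b, Sh2b1, Slc2a12, Tsc2 and Grb10 also had an unadjusted p under 0.05 and lay between -0.119 and 0.036. The 7 are 8.54% of 82 list genes, beside 15.5% of all genes. With time point as a random block 5 of the 82, 6.1%, and with scan day 3 of the 82, 3.66%, had an unadjusted p under 0.05, beside 5.53% and 5.45% of all genes. Tbc1d4 then had p = 0.021 and 0.0134 and Vamp2 p = 0.0492 and 0.0509 (limma adjusted p = 0.807 and 0.827 for both genes). No gene of these pathway lists passed the adjusted test in any comparison.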

How the data were processed

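RNA of 39 subcutaneous fat samples was measured on 1-colour (Cy3) Agilent arrays. Per the file headers the authors read them with Agilent Feature Extraction 10.5.1.1 (the labels name an earlier version), and the deposited processed intensity has a fitted background surface subtracted and a trend within the array corrected, with no scaling between arrays. The authors also deposited a table of log2 ratios, taken against LFC at the same time point, used only as an alternative.

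From these the log2 intensity minus the log2 75th percentile of each array was taken, outlier spots were dropped, and 1 probe per gene name (the highest mean) was kept. Genes well above background on 10 of 20 arrays (HFC and LFC) or 6 of 30 arrays (5 diets) went into linear models of diet plus time point (limma 3.58.1, R 4.3.3). The time point served as the block. Adjustment of the p-values (Benjamini-Hochberg) ran over all genes tested. The change per week had diet and week as terms and no block. The pairing came from the labelled time point: deviations from the diet means of HFC and LFC arrays of 1 time point correlated with r from -0.53 to 0.76, above 0.1 in 8 of 10, and those of the 5 diets from Week 3 on with r from -0.49 to 0.75, above 0.1 in 38 of 60 pairs. The fits were tried on simulated data, with arrays drawn independently and changes far larger than those of the 9 tested members. That checks only that the code recovers a planted change, and does not bear on the results here. The number of arrays limits the precision. The 10 genes, the pathway lists and the marker lists were chosen with earlier results of these data known, and the immediate-early list and the fits without the arrays it marks were added after the arrays were seen. Genes are named if they are among the 10, for Slc2a4 and Slc2a5 if among the 5 most like by Pearson r over genes well above background on at least 20 arrays, and in the lists if the unadjusted p was under 0.05, at most 4 per list with the smallest p first. Alternatives were another background correction, normalization, filter, block, weighting and test, all probes, the authors' table, each time point left out and, added after the data were seen, Day 14 and Week 0 averaged.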

Additional observations from a re-analysis of the deposited data

Results flagged for a closer look

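In 70 groups of arrays of one gene and diet, in which LFC and HFC enter both with all arrays and with those of Week 3 to Week 18 and so overlap, 6 had an array with an unusually wide gap to its neighbours, which chance gives in about 1 of 20 separate groups. Slc2a4 in HF75 was 7.34 at Week 3 and Irs1 in HF75 was 4.68 at Week 3, both on the array with the highest muscle marker mean, 7.31. Irs1 in LFC from Week 3 to Week 18 was 2.85 at Week 12, on an array with an immediate-early mean of -1.32. Insr was -1.72 in HFC at Week 18 and -2.13 in HF5 at Week 9, and Pik3r1 was 2.49 in LFC at Week 18. Week 9 was also the lowest Insr point of HF20 (-1.81) and HF75 (-2.14), and HF5 minus LFC was -0.19 there, so that low value is not particular to HF5.

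The HFC array of Day 1 enters no comparison, as no LFC array was made then. On it Slc2a4 was 6.19 and Irs1 was 3.98, the latter above the highest LFC array at 3.02. The highest LFC level of Slc2a4 was 6.03, and as the spot was saturated on both of these arrays, their order cannot be read. The HFC array of Day 1 had a muscle mean of 5.99 and an immediate-early mean of -0.84, and the part of either in these values was not tested.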

How the results depend on the processing

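Under the alternatives run, the number of genes with an adjusted p under 0.05 stayed at 0 in 9 of the 10 comparisons other than the change per week, and became 8121 for HF20 against HFC under normexp, with an all-gene median of 0.36 there. For the change per week the count was 20. It was 1 after normexp correction, 3 without the filter on dim probes, 421 with array weights, 1 with slide, 1 with time point and 0 with scan day as a random block, 74 without the arrays with low immediate-early genes, and between 0 (without Week 18) and 2877 (without Week 3) with each time point left out in turn. Without the time point block in HFC against LFC, 468 genes in place of 1165 had an unadjusted p under 0.05, none an adjusted one, and the block changed no adjusted call of a member. Slide as a random block could not be fitted for the 20 arrays of HFC and LFC, where only 1 pair shares a slide. After normexp correction the mean Slc2a5 level was -2.94 in HF5, -1.42 in HF20 and -2.1 in HF75, and in HF20 the mean of Irs2 was 3.73 and of Pde3b -0.77; other member means stayed within 1 SD under normexp and quantile normalization. The sign of the HFC difference from LFC over 10 time points changed in none of 25 alternatives for Irs1, Akt2, Pde3b and Slc2a1, in none of 24 for Slc2a5, in 1 of 25 for Insr and for Pik3r1, in 4 for Slc2a4, in 6 for Irs2 and in 11 for Slc2a3. Slc2a5 was not among the genes well above background on every array. The methods' t-test gave 217 to 558 genes at an unadjusted p under 0.05 over the 8 comparisons of 2 diets, and none after adjustment.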
